A study of Mus musculus with 12 samples.

Results

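The genes described here are those of the mouse proteasome and its assembly factors, read in liver RNA. They were taken by symbol: every gene whose symbol starts with Psma, Psmb, Psmc, Psmd, Psme or Psmg and that has a probe set with a single symbol, without Psmb8, Psmb9 and Psmb10, and with the probe set of the highest mean standing for the gene. This gave 44 of the 12393 genes on the array. Of these, 42 passed the filter on low values (at least 3 arrays with a value over their own 40th percentile) and were tested among 8469 genes. Psma8, a testis form of an alpha subunit, and Psmc3ip stayed under the filter. Psmc3ip and Psme3ip1 carry the prefix but are no part of the proteasome.

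Livers came from adult male C57BL6/J mice, 8 weeks old, injected into the peritoneum with saline or with 100 mg/kg acetaminophen (APAP) and sampled 8 hours later. The 4 groups of 3 arrays were wildtype with saline, wildtype with APAP, txnrd1 liver-null with saline and txnrd1 liver-null with APAP. In the liver-null mice albCre, a Cre recombinase driven by the albumin promoter of hepatocytes, disrupts a conditional allele of Txnrd1, the gene of cytosolic thioredoxin reductase, so the disruption is aimed at hepatocytes. Which alleles the wildtype mice carry beyond that label is not stated. The titles end in a different number for each array, taken here as the number of the mouse. Every title also reads "mouse 8", which the titles do not explain. Whether litters or cages were shared is not stated. The title of the series names a shift in liver metabolism and protection from APAP toxicity, and the comparison here asks whether the transcripts of the protein-degrading machinery moved with the genotype or the drug.

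The proteasome is a barrel of alpha and beta rings in which unfolded, ubiquitin-tagged proteins are cut. A cap with a ring of ATPases at its base and a lid of non-ATPase subunits binds the tagged protein, removes the ubiquitin and threads the chain into the barrel. Other caps open the barrel without ATP, and dedicated chaperones put the particle together. In liver the proteasome clears damaged, oxidised and short-lived proteins, among them NRF2 (gene Nfe2l2), the transcription factor of the antioxidant response, which is held at a low level by constant degradation. When proteasome capacity falls short, the related factor NRF1 (gene Nfe2l1) raises the subunit genes together through antioxidant response elements (ARE) in their promoters. NRF2 can raise some of them through the same element.

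The promoters of 4 members are shown because the ARE is the element through which such a shared rise would run, and because the data below separate these genes. Psmb5, Psmd5 and Psme1 had the 3 largest genotype differences among the 42 tested members, and Psmb6, a neighbour of Psmb5 in the beta ring, had almost none. Each sequence is the 150 bases before the RefSeq transcription start on GRCm38.p6, read 5′ to 3′ on the gene's strand, with matches to the ARE core TGACNNNGC in capitals.
Psmb5, chr14:54617996-54618145, minus strand: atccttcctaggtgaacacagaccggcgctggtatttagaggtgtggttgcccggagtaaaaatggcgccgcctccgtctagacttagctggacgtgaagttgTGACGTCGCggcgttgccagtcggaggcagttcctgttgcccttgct
Psmb6, chr11:70525207-70525356, plus strand: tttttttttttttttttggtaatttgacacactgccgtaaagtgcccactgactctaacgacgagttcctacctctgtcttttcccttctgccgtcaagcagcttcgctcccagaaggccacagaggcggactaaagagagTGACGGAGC
Psmd5, chr2:34870963-34871112, minus strand: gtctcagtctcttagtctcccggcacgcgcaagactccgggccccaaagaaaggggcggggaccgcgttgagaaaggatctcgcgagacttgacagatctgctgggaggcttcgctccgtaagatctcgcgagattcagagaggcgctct
Psme1, chr14:55578344-55578493, plus strand: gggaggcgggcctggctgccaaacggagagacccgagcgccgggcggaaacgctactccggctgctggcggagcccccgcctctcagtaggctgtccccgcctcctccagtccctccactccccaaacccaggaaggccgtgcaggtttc
The core was searched on both strands in windows from 250 bases before to 50 after a start. It was found once in the printed stretch of Psmb5, with its first base at -47 from the start, and once in that of Psmb6, at -9, and not in those of Psmd5 or Psme1. RefSeq windows matched 36 of the 44 members. Without the 2 genes that share only the prefix, 6 of 36 windows (16.7%) held the core, in Psmb5, Psmb6, Psmc6, Psmd12, Psmd9 and Psme4, beside 12.4% of the 32851 windows of all genes. A CCAAT box (CCAAT, both strands, which can share an end letter with the core) was in 33.3% of member windows and 37.4% of all. The member windows were richer in GC, with a median of 59.0% against 52.7%. The same search found no core in the window of Nqo1, an NRF2 target gene described below. Of the Txnrd1 windows, some held the core and some did not. The matches describe the letters of these windows only, and a window without the core does not show that a gene lacks the element elsewhere.

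Proteasome transcripts showed no called difference between the genotypes, and over both treatments nearly all were bounded within a 1.5-fold change. None of the 42 tested members passed the threshold (limma, Benjamini-Hochberg adjusted p under 0.05 over all genes) in the saline livers, in the APAP livers or over both treatments, where 0.638%, 0.768% and 4.46% of all tested genes did. At an unadjusted p under 0.05, limma gave 1, 3 and 3 members, all higher in the livers labelled liver-null, against 12.2%, 9.02% and 17% of all genes. The median log2 difference of the 42 members over both treatments, liver-null minus wild-type, was -0.01, with -0.01 over all tested genes. The median absolute difference was 0.06 for the members and 0.11 for all tested genes, and 38 of 42 members (90.5%) lay within 0.2 either way, beside 72.1% of all genes. These shares were not matched for expression level, and the members are brighter as a set.

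How firmly a difference can be bounded follows from the spread between livers. Over both treatments, 6 arrays against 6, the 95% interval of 41 of 42 members (97.6%) lay wholly within a 1.5-fold change either way, beside 79.2% of all tested genes. Psmd5 was the member whose interval reached further. A 1.5-fold change is 0.585 on the log2 scale, and the bounded members include Psmb5 and Psme1, whose intervals exclude 0. With 3 arrays against 3, 35 of 42 members (83.3%) were bounded in this way in saline and 35 after APAP, against 58.4% and 61.6% of all genes. The median SD within a group was 0.15 on the log2 scale for the members and 0.21 for all genes. The gap was narrower among bright genes: of those with a mean of 9 or more, 27 members had a median SD of 0.12 and 1195 genes one of 0.14. That is 27 of 42 members but 1195 of 8469 genes, and the shares of bounded intervals were not matched for level. For scale, the smallest differences called over all genes were 0.55 in saline (Nsmf), 0.53 after APAP (Cdc42ep1) and 0.29 over both (Pgrmc1).

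**Figure D1:**
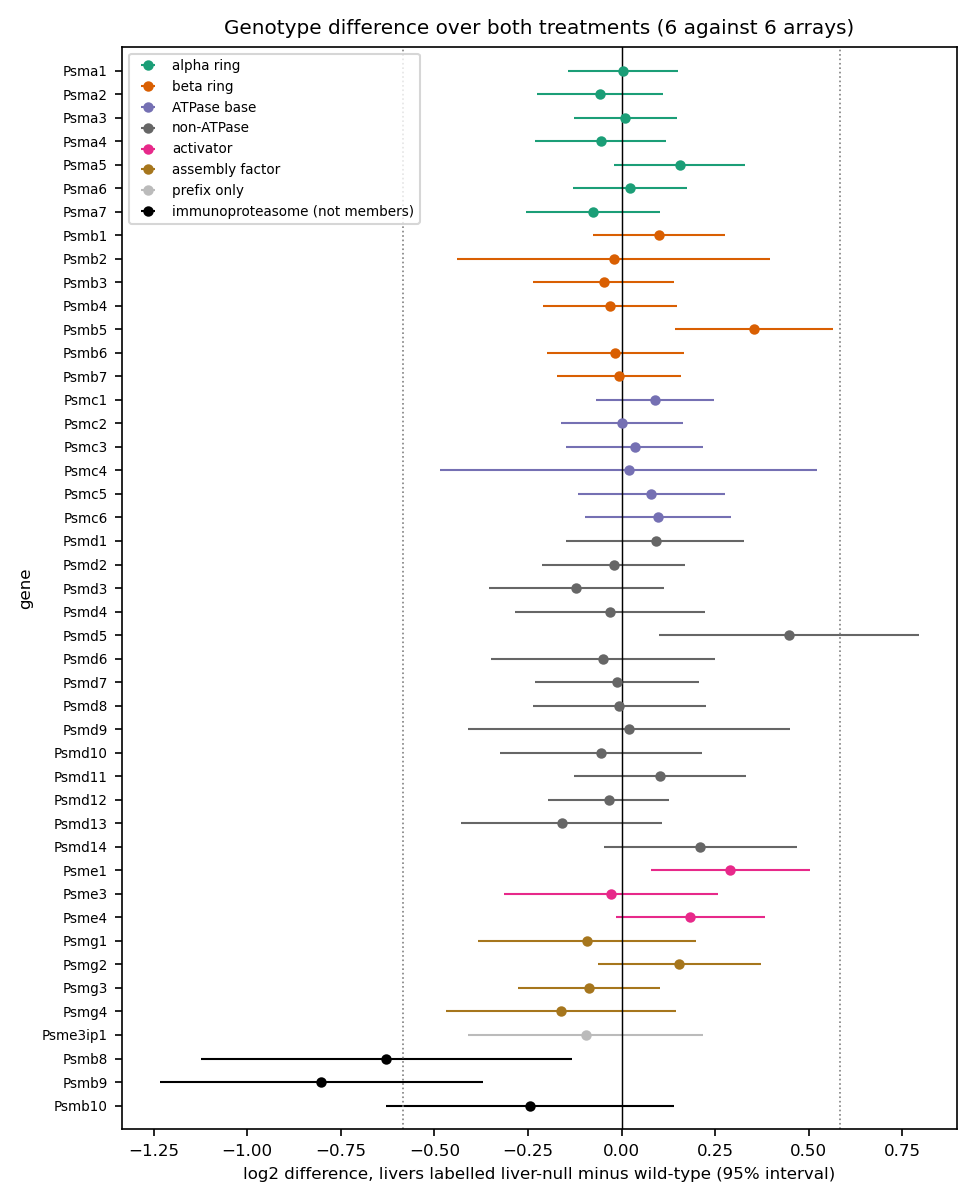
Log2 difference between livers labelled liver-null and wild-type over both treatments (horizontal axis) for each tested member and, at the foot, 3 immunoproteasome subunits, with 95% intervals from limma; dotted lines mark a 1.5-fold change. Most members sit near 0; Psmb5, Psmd5 and Psme1 lie to the right, and Psmb8 and Psmb9 to the left.

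The alpha ring, which forms the gate of the barrel, varied little. Over both treatments its 7 tested members differed by between -0.08 and 0.16 on the log2 scale, with a median of 0.00 and all 7 intervals within 1.5-fold. Psma5 had the largest difference, with log2 values of 9.58, 9.69 and 9.68 with saline and 9.84, 9.71 and 9.81 with APAP in wild-type livers, and 9.83, 9.98 and 9.65 with saline and 9.96, 9.81 and 10.02 with APAP in liver-null livers. Its liver-null arrays ran from 9.65 to 10.02 and its wild-type arrays from 9.58 to 9.84, so the genotypes overlapped, and the difference of 0.16 (SE 0.08, the standard error of the fitted difference) did not pass (limma, adjusted p 0.368). Psma7 had the largest difference below 0, at -0.08, and read 9.67, 9.78 and 9.60 with saline and 9.69, 9.62 and 9.84 with APAP in wild-type livers, and 9.53, 9.74 and 9.48 with saline and 9.79, 9.62 and 9.57 with APAP in liver-null livers. Psma1 was the flattest, at 0.00, with 10, 10.10 and 10.06 with saline and 10.14, 10.17 and 10.11 with APAP in wild-type livers, and 9.98, 10.14 and 9.99 with saline and 10.19, 10.20 and 10.11 with APAP in liver-null livers. Between all 12 livers Psma1 spanned 9.98 to 10.20. Psma3 varied least of all tested members, with an SD within groups of 0.03. Psma8, under the filter and so without a test, read 2.07, 2.01 and 1.96 with saline and 1.84, 2.00 and 1.85 with APAP in wild-type livers, and 2.42, 2.62 and 2.17 with saline and 2.18, 2.36 and 2.09 with APAP in liver-null livers. Its 6 liver-null arrays lay above its 6 wild-type arrays, by 0.35 on average, at values below the array median of 2.91 to 2.99.

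The beta ring holds the cutting sites, and here 1 gene differed more between the genotypes than its 6 neighbours. Psmb5 encodes the subunit that cuts after hydrophobic residues, the main target of proteasome inhibitor drugs. Its only probe set read 9.27, 9.46 and 9.44 with saline and 9.31, 9.21 and 9.35 with APAP in wild-type livers, and 9.90, 9.85 and 9.46 with saline and 9.81, 9.60 and 9.55 with APAP in liver-null livers. After APAP every liver-null array lay above every wild-type array, while in saline the liver-null array 16, at 9.46, fell inside the wild-type range. The difference was 0.34 (SE 0.14) in saline and 0.36 (SE 0.14) after APAP. Over both it was 0.35 (SE 0.10, 95% interval 0.14 to 0.56), a 1.28-fold higher level, with a limma p of 0.00331 and an adjusted p of 0.064. The other 6 beta subunits differed by -0.05 to 0.10. A difference of the size of Psmb5 was not rare: over both treatments 11.8% of all tested genes had a larger absolute one.

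The call for Psmb5 turned on how the arrays were handled. The 12 arrays split by brightness in a way no label names: numbers 10 and 14 of the wild-type and 16 and 17 of the liver-null livers, 1 per group and called the lower set here, have an upper quartile of log2 values of 5.49 to 5.58, and the other 8 have 5.73 to 5.85. With this array set in the model, Psmb5 was the 1 member called over both treatments (adjusted p 0.0283), where 10.4% of all genes were. No member was called with the array set in saline or after APAP, where 2.87% and 2.18% of genes were (limma; 3 and 4 members at an unadjusted p under 0.05). Within the 8 upper arrays Psmb5 differed by 0.48, and within the 4 lower arrays by 0.11. It was called in 8 of 21 alternative settings, with differences of 0.31 to 0.48 and adjusted p from 0.00411 to 0.156. One of the 8 leaves out liver-null saline 16, which gave 0.42 and an adjusted p of 0.0185.

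Psmb1 and Psmb7 show the rest of the ring. Psmb1, a structural beta subunit, read 9.80, 9.95 and 9.66 with saline and 9.87, 9.81 and 9.74 with APAP in wild-type livers, and 9.99, 9.96 and 9.77 with saline and 10.001, 9.90 and 9.81 with APAP in liver-null livers, a difference of 0.10 over both. Psmb7 encodes the subunit that cuts after basic residues and differed by -0.01, with 10.001, 9.91 and 9.79 with saline and 9.99, 9.80 and 9.79 with APAP in wild-type livers, and 9.87, 9.83 and 9.84 with saline and 9.996, 9.91 and 9.78 with APAP in liver-null livers. Psmb6, whose product cuts after acidic residues, read 10.19, 10.24 and 10.18 with saline and 10.30, 10.08 and 10.18 with APAP in wild-type livers, and 10.27, 10.24 and 10.07 with saline and 10.34, 10.17 and 9.98 with APAP in liver-null livers. Its difference over both was -0.02 (SE 0.08, 95% interval -0.20 to 0.17). Its promoter window also holds the ARE core.

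**Figure D2:**
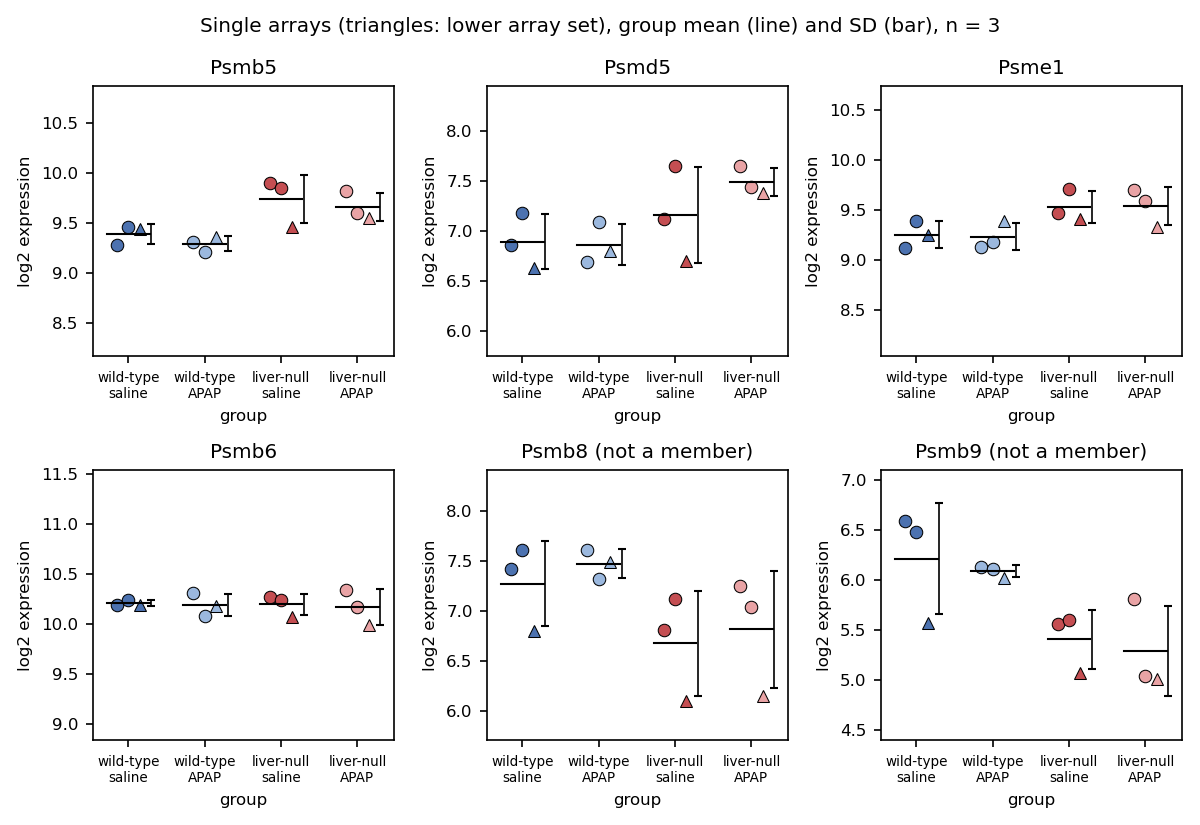
Log2 expression of 6 genes on each array by group, with circles for the upper and triangles for the lower array set, the group mean as a line and the SD of 3 arrays as a bar. Every panel spans the same range of log2 units. Psmb5, Psmd5 and Psme1 sit higher in the liver-null groups, Psmb6 is level, and Psmb8 and Psmb9, which are not members, sit lower.

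The 6 ATPases of the base, which unfold the substrate, differed by 0.00 to 0.10 over both treatments by the probe sets used, and all 6 intervals lay within 1.5-fold. Psmc6 had the largest difference, 0.10, with 9.77, 9.68 and 9.70 with saline and 9.95, 9.88 and 9.50 with APAP in wild-type livers, and 9.74, 9.90 and 9.71 with saline and 9.89, 9.92 and 9.92 with APAP in liver-null livers. Psmc1, with 0.09, read 8.98, 9.05 and 9.05 with saline and 9.11, 9.09 and 8.93 with APAP in wild-type livers, and 9.17, 9.14 and 8.99 with saline and 9.21, 9.16 and 9.09 with APAP in liver-null livers. In both genes the genotypes overlapped. The other probe sets of Psmc6, which are dimmer, differed by 0.31 (mean log2 value 5.33) and 0.09 (mean 8.03). Psmc2 differed by 0.00 and read 10.18, 10.13 and 10.24 with saline and 10.26, 10.13 and 10.19 with APAP in wild-type livers, and 10.17, 10.27 and 10.06 with saline and 10.14, 10.16 and 10.34 with APAP in liver-null livers.

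Among the 14 non-ATPase members, which make up the lid, the ubiquitin receptors and chaperones of the base, the range was wider, from -0.16 for Psmd13 to 0.45 for Psmd5, with a median of -0.02. Psmd5 encodes a chaperone that holds ATPase subunits while the base is assembled and is not kept in the finished particle. Its probe set read 6.87, 7.18 and 6.63 with saline and 6.70, 7.10 and 6.80 with APAP in wild-type livers, and 7.12, 7.66 and 6.71 with saline and 7.65, 7.44 and 7.39 with APAP in liver-null livers. The 3 liver-null APAP livers lay above all 3 wild-type APAP livers, but in saline the liver-null values, 6.71 to 7.66, overlapped the wild-type ones, 6.63 to 7.18. The difference was 0.27 (SE 0.22) in saline and 0.63 (SE 0.22) after APAP, 1.55-fold, with limma adjusted p of 0.747 and 0.339. Over both it was 0.45 (SE 0.16, limma adjusted p 0.155), with 0.51 in the upper and 0.33 in the lower array set. Over both, 7.58% of all tested genes had a larger absolute difference than Psmd5. The change of its genotype difference with APAP, 0.36 (SE 0.32), did not pass. Psmd5 was called in 2 of 21 settings: with array weights, and without liver-null saline 16 (0.56, adjusted p 0.0498).

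Psmd14, the enzyme of the lid that cuts ubiquitin chains off the substrate, read 8.10, 8.34 and 7.86 with saline and 8.25, 8.15 and 7.93 with APAP in wild-type livers, and 8.36, 8.40 and 7.88 with saline and 8.42, 8.46 and 8.38 with APAP in liver-null livers. After APAP its liver-null values, 8.38 to 8.46, were all above the wild-type ones, a difference of 0.31 (SE 0.17, limma adjusted p 0.661). Psmd8, a lid subunit, was the flattest of the group at -0.01, with 9.49, 9.46 and 9.23 with saline and 9.67, 9.40 and 9.37 with APAP in wild-type livers, and 9.64, 9.47 and 9.20 with saline and 9.60, 9.42 and 9.26 with APAP in liver-null livers. Psmd3, a scaffold of the lid, was the 1 member with all 3 liver-null saline arrays below all wild-type saline arrays, by 0.30 (SE 0.15), and it differed by 0.06 after APAP. The interaction of 0.36 (SE 0.21) did not pass (limma, adjusted p 0.999).

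Few members had genotype groups that did not overlap. In saline these were Psme1 (higher) and Psmd3 (lower), 2 of 42, beside 15.2% of all tested genes. After APAP they were Psmb5, Psmd5 and Psmd14, all higher, 3 of 42, beside 13.9%. Over both treatments, 6 arrays against 6, there were 0 of 42, beside 4.36%.

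The activators are caps that open the barrel without ATP. Psme1 encodes a subunit of the interferon-inducible cap that serves antigen processing, and its probe set read 9.12, 9.39 and 9.25 with saline and 9.13, 9.18 and 9.39 with APAP in wild-type livers, and 9.47, 9.71 and 9.41 with saline and 9.70, 9.59 and 9.33 with APAP in liver-null livers. In saline the groups did not overlap, and after APAP liver-null array 17, at 9.33, fell within the wild-type range. The difference was 0.28 (SE 0.14) in saline, 0.30 (SE 0.14) after APAP and 0.29 (SE 0.10, 95% interval 0.08 to 0.50) over both, 1.22-fold, with an adjusted p of 0.128 in limma. It was 0.41 within the upper and 0.05 within the lower array set, and it was called in 1 of 21 settings, with array weights. Over both treatments 16.4% of all tested genes had a larger absolute difference than Psme1.

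Psme4, whose product caps the barrel in the nucleus and in sperm, read 9.33, 9.59 and 9.22 with saline and 9.60, 9.48 and 9.27 with APAP in wild-type livers, and 9.56, 9.68 and 9.51 with saline and 9.68, 9.61 and 9.54 with APAP in liver-null livers. All liver-null arrays lay at 9.51 or above, wild-type arrays at 9.22 to 9.60, and the difference of 0.18 (SE 0.09) did not pass (limma, adjusted p 0.342). Its other probe sets moved by 0.26 and 0.15. Psme3, the nuclear relative of Psme1, differed by -0.03 and read 5.26, 5.17 and 4.87 with saline and 5.08, 5.31 and 4.77 with APAP in wild-type livers, and 4.99, 5.02 and 4.97 with saline and 4.71, 5.32 and 5.28 with APAP in liver-null livers.

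The assembly factors Psmg1 to Psmg4 are chaperones of the alpha ring, and they differed by -0.16 to 0.15. Psmg4 had the largest difference, -0.16, but its values of 2.80, 2.72 and 2.18 with saline and 2.65, 2.54 and 2.20 with APAP in wild-type livers, and 2.23, 2.56 and 2.06 with saline and 2.43, 2.62 and 2.22 with APAP in liver-null livers lie near the array median of 2.91 to 2.99, so a change in this gene could be understated. Psmg2 differed by 0.15 (SE 0.10) and read 8.34, 7.99 and 7.84 with saline and 8.23, 8.16 and 8.05 with APAP in wild-type livers, and 8.38, 8.35 and 8.10 with saline and 8.30, 8.28 and 8.13 with APAP in liver-null livers. Its other probe set, with a mean of 7.23, differed by 0.25. Psmg3 differed by -0.09, with 6.99, 6.92 and 6.67 with saline and 6.68, 6.73 and 6.65 with APAP in wild-type livers, and 6.85, 6.65 and 6.49 with saline and 6.74, 6.73 and 6.65 with APAP in liver-null livers.

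**Figure D3:**
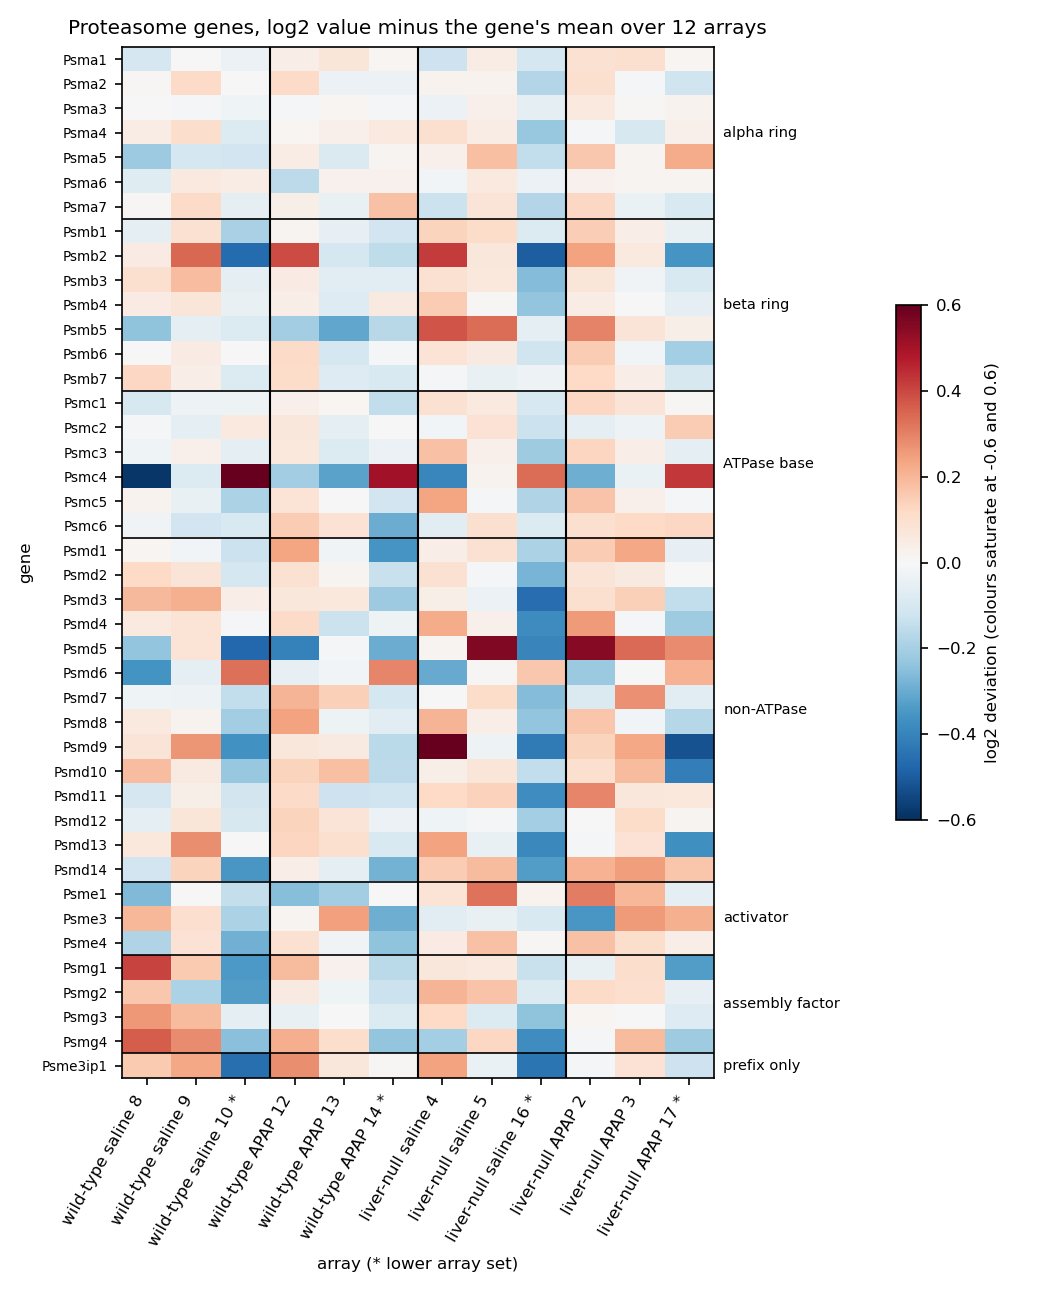
Colour gives each gene's log2 value minus its mean over the 12 arrays, for the 42 tested members (rows, by role) and the arrays (columns, by group; asterisks mark the lower array set). Most cells are pale, the columns of the lower set are bluer, and Psmc4 and Psmd6 are redder in the lower set. Psmb5 and Psmd5 are redder in most liver-null columns, but lie below their means in liver-null saline 16.

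APAP moved no member past the threshold in either genotype. In limma 0 of 42 members were called for APAP in wild-type livers, for APAP in liver-null livers and for the interaction, where 0%, 0% and 0% of all genes were. At an unadjusted p under 0.05 there were again 0, 0 and 0 members, beside 1.69%, 0.697% and 1.29% of all genes. Between APAP and saline the members differed by -0.18 (Psmd3) to 0.15 (Psmd7) in wild-type livers, and 39 of 42 intervals lay within 1.5-fold, against 68.2% of all genes. In liver-null livers the range was -0.12 (Psmd9) to 0.33 (Psmd5), with 38 of 42 intervals within 1.5-fold, against 69.9%. The median member differed by 0.00 and 0.05, against -0.02 and 0.02 over all tested genes. For the interaction 26 of 42 members were bounded within 1.5-fold, so the design constrains that contrast least. Both genotype contrasts share no arrays, while each genotype contrast shares its arrays with an APAP contrast.

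The subunits that replace the constitutive cutting subunits in the immunoproteasome had differences below 0, with 1 of 3 called. Psmb9 (in place of Psmb6), Psmb8 (in place of Psmb5) and Psmb10 (in place of Psmb7) are induced by interferon and are abundant in immune cells. Psmb9 read 6.59, 6.48 and 5.58 with saline and 6.14, 6.12 and 6.03 with APAP in wild-type livers, and 5.57, 5.60 and 5.07 with saline and 5.81, 5.05 and 5.02 with APAP in liver-null livers. After APAP every liver-null array lay below every wild-type array, while in saline the lower-set wild-type array, at 5.58, fell among the liver-null values, and the other two wild-type arrays lay above all of them. The difference over both was -0.80 (SE 0.20), 1.74-fold lower, with a limma adjusted p of 0.0431, and -0.83 and -0.76 in the upper and lower sets. The call held in 10 of 21 settings. Leaving out any array other than wild-type saline 10 or liver-null APAP 2 ended it, with differences of -0.71 to -0.85 and adjusted p of 0.0634 to 0.110, and testing all genes without the filter gave 0.0551.

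Psmb8 read 7.42, 7.61 and 6.80 with saline and 7.61, 7.33 and 7.49 with APAP in wild-type livers, and 6.81, 7.12 and 6.10 with saline and 7.25, 7.04 and 6.15 with APAP in liver-null livers. Its difference of -0.63 (SE 0.23) gave an adjusted p of 0.163, and of 0.0194 with the array set in the model. Psmb10 read 7.71, 7.36 and 6.77 with saline and 7.16, 7.31 and 7.36 with APAP in wild-type livers, and 7.13, 7.35 and 6.81 with saline and 7.25, 7.14 and 6.52 with APAP in liver-null livers, and its difference of -0.24 (SE 0.18, limma adjusted p 0.57) did not pass.

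In bulk liver, fewer cells of a type and less RNA per cell cannot be told apart, so the markers of other liver cells are given beside these subunits, as sums on the linear scale. Such a sum mostly follows its brightest genes, as with Dcn (mean log2 value 9.62) among the stellate and Clec4g (9.10) among the endothelial markers. Overlapping sums therefore say little about the dimmer markers. The lymphocyte markers summed to 49.7 to 65.6 in wild-type and 51.4 to 64.1 in liver-null livers, with 4 of 8 measured genes past the filter and Cd3g, Cd79a, Cd79b and Nkg7 under it. The myeloid markers summed to 1650 to 2330 and 1210 to 2360, with 10 of 11 past the filter, 5 higher and 5 lower in liver-null livers. The endothelial markers summed to 667 to 995 and 633 to 990, and 5 of 7 were lower, with a median difference of -0.08. The stellate and fibroblast markers summed to 964 to 1220 and 834 to 1020, and 6 of 6 were lower, with a median difference of -0.20. The bile duct markers, 2 of 4 past the filter, summed to 21 to 22.8 and 20.8 to 22.9. No marker of these 5 lists was called over both treatments (limma, with Clec4f, Kdr and Reln, all lower, at an unadjusted p under 0.05). Of all genes 4.46% were called and 17% had an unadjusted p under 0.05. With the array set in the model 10.4% of all genes were called, Psmb8 among them. That model also called the Kupffer cell marker Clec4f (-0.48, limma adjusted p 0.0114) and the endothelial receptor gene Kdr (-0.28, limma adjusted p 0.0263), both lower. The part of these cells in the Psmb8 and Psmb9 differences was not tested.

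Taken within each array, the log2 difference between paired transcripts of cutting subunits differed between the genotypes for 2 of 3 pairs. The pairs follow the textbook replacements, and they were examined with the single values known. Their p-values therefore add no separate support to the single-gene results, and they are adjusted over 3 pairs and not over all genes. In bulk liver the transcripts of a pair can come from different cells, so a balance within a cell was not measured. The log2 difference Psmb5 minus Psmb8 was 1.85, 1.85 and 2.64 with saline and 1.70, 1.88 and 1.86 with APAP in wild-type livers, and 3.09, 2.73 and 3.36 with saline and 2.56, 2.55 and 3.40 with APAP in liver-null livers. Within each treatment the genotypes did not overlap. Because the probes differ, these levels carry no meaning as ratios of transcripts, and a change between genotypes does. It was 0.98, or 1.98-fold, by an exact two-sided permutation test within treatments p = 0.005, the smallest its 400 splits can give (0.0075 adjusted over 3 pairs).

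For Psmb6 minus Psmb9 the genotype difference was 0.79, or 1.72-fold, again without overlap within a treatment (exact permutation p = 0.005, adjusted 0.0075). For Psmb7 minus Psmb10 it was 0.24 (exact permutation p = 0.2). The first pair combined a numerator that was higher, Psmb5, with a denominator that was lower, while in the second Psmb6 stood level and Psmb9 carried the difference. Leaving out single arrays gave 0.84 to 1.11 and 0.69 to 0.94 for these pairs, with adjusted p of at most 0.03 in both. Within the upper array set alone the differences were 0.91 and 0.88, and 2 arrays against 2 per treatment cannot reach 0.05.

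Lists of genes around the proteasome were compared between the genotypes. They hold transcription and maturation factors, proteasome-bound and shuttle factors, antigen processing, ubiquitin genes, and p97 adaptors with ER-associated degradation. Here and below, rose and fell mean higher and lower in liver-null than in wild-type livers. In saline 0 genes of these lists were called (limma). Among the APAP livers Nfe2l2 alone was called, lower in liver-null livers by 0.83 (limma, adjusted p 0.0429). That call was lost in 12 of the alternative settings, among them leaving out any array other than wild-type APAP 12 or liver-null saline 4. Over both treatments 4.46% of all tested genes were called. In the list of transcription and maturation factors 1 of 8 tested genes rose and 1 fell, with a median of 0.05. Nfe2l2, the gene of NRF2 itself, fell by 0.76 (SE 0.11, limma adjusted p 0.00418, called in 21 of 21 settings). Zfand5, a protein that stimulates the proteasome, rose by 0.50 (SE 0.12, adjusted p 0.0309), a call kept in 11 of 21 settings and lost when any array other than wild-type saline 9, wild-type APAP 13 or liver-null saline 16 was left out, or its probe sets were averaged (0.37, adjusted p 0.0622). Nfe2l1 differed by 0.11 (SE 0.17, adjusted p 0.835), and Pomp, the chaperone that completes the barrel, by -0.02. Vcp, the segregase that releases NRF1 from the endoplasmic reticulum, differed by 0.00. With the array set in the model 3 of the 8 rose and 1 fell, beside 10.4% of all genes called: Zfand2a, a proteasome-associated stress protein (0.47, adjusted p 0.0347), and Ngly1, which removes the sugar chains of NRF1 (0.27, adjusted p 0.0256), joined Zfand5 and Nfe2l2. In saline that model called Zfand5 (0.54, adjusted p 0.0293) and Nfe2l2 (-0.69, adjusted p 0.0476).

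Over both treatments 4.46% of all tested genes were called and 17% had an unadjusted p under 0.05, the shares to set beside these lists. Among proteasome-bound and shuttle factors 1 of 12 rose and 0 fell (limma, 2 of 12 at an unadjusted p under 0.05, both higher), with a median of 0.01. The gene was Ubqln2, which carries ubiquitinated proteins to the proteasome, with 0.40 (SE 0.08, adjusted p 0.0162), and with 0.15 (adjusted p 0.153) when its probe sets were averaged. With the array set in the model, which called 10.4% of all genes, 2 of 12 rose. They were Ubqln2 and Ecpas, a scaffold that binds the proteasome (0.40, limma adjusted p 0.04). Ubqln2 was also called after APAP (0.43, limma adjusted p 0.0438), where that model called 2.18% of all genes. Of the 9 tested genes of the immunoproteasome and interferon-inducible antigen processing, 0 rose and Psmb9 fell, with a median of -0.15; with the array set Psmb8 fell as well. In the lists of ubiquitin genes (8 tested, median -0.02) and of p97 adaptors and ER-associated degradation (12 tested, median 0.06) 0 genes were called in limma, with 2 and 1 at an unadjusted p under 0.05. The largest differences there were 0.23 for Ube2k and -0.20 for Ube2r2, and -0.27 for Ubxn1 and 0.20 for Ubxn4. Over all tested genes 193 rose and 185 fell.

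Genes of the NRF2 pathway give the scale of the genotype difference in these livers. Over both treatments, in saline and after APAP, 4.46%, 0.638% and 0.768% of all genes were called (limma). Of 22 tested NRF2 target genes, among them Nqo1, 19 rose over both treatments, with a median difference of 1.25, and 12 rose in saline and 15 after APAP. The largest differences over both were 5.99 for Cbr3, 3.26 for Nqo1, 2.60 for Gsta2 and 2.44 for Mgst3. This list holds Txnrd1, and it includes genes known from earlier results of these data to be high, so it serves as scale only. None of its genes had a difference within 0.2 either way by the probe set used, which that choice of genes made likely. Txnrd1 itself read 9.43, 9.58 and 9.81 with saline and 9.76, 9.59 and 9.70 with APAP in wild-type livers, and 10.26, 10.47 and 10.32 with saline and 10.37, 10.39 and 10.58 with APAP in liver-null livers, higher by 0.75 in the livers labelled liver-null (0.19, adjusted p 0.0867 in limma, when its probe sets were averaged). Where its probes lie relative to the deleted part was not analysed here, so this value does not check the labels. Hepatocyte markers summed to 76200 to 82100 in wild-type and 74200 to 79500 in liver-null livers on the linear scale, with all 10 tested and 0 called (limma, 1 at an unadjusted p under 0.05, Apoa1 at -0.20, which was called with the array set, adjusted p 0.0401).

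**Figure D4:**
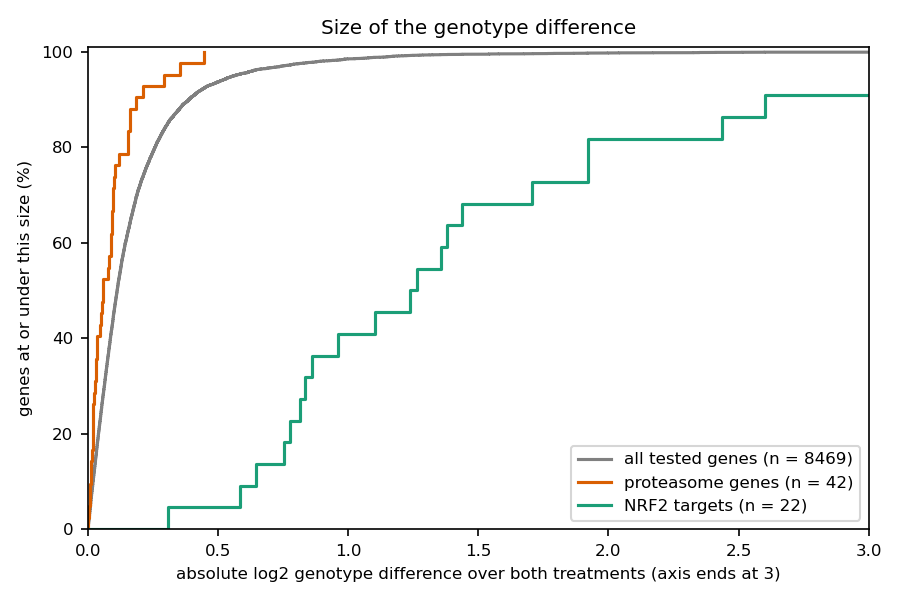
Share of genes (vertical axis, percent) whose absolute log2 genotype difference over both treatments is at or under the value on the horizontal axis. The curve of the proteasome genes rises before that of all tested genes, 71.4% against 45.5% at 0.1, and the NRF2 targets lie far to the right. The sets were not matched for expression level, and the NRF2 list includes genes already known to be high in these data.

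The arrays were split into sets by the upper quartile of these same values, so lower levels in the lower set follow from the split. The members followed all tested genes in this. The median member was lower by 0.17 on the log2 scale in the lower set than in the upper, and the median of all tested genes by 0.16. In 7 of 42 members (16.7%) all 4 lower arrays lay below all 8 upper ones, beside 14.3% of all genes: Psmb2 (-0.55), Psmd1, Psmd8, Psmd9 (-0.55), Psmd10, Psmg1 and Psmg4. Psmc4 and Psmd6 (4.76%, beside 3.8% of all genes) ran the other way, by 0.71 and 0.37. Psmc4, an ATPase of the base, read 9.05, 9.55 and 10.27 with saline and 9.42, 9.31 and 10.14 with APAP in wild-type livers, and 9.24, 9.65 and 9.97 with saline and 9.34, 9.60 and 10.06 with APAP in liver-null livers. Its second probe set differed between the sets by -0.10, and that of Psmd6 by -0.23. Psmb4's unused probe set moved by 0.50 and its used one by -0.11. Such splits between probe sets of 1 gene follow the array and not the group, and no label says what the sets stand for. The genotype difference of Psmc4 was 0.02 by the used probe set and 0.00 by the other.

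**Figure D5:**
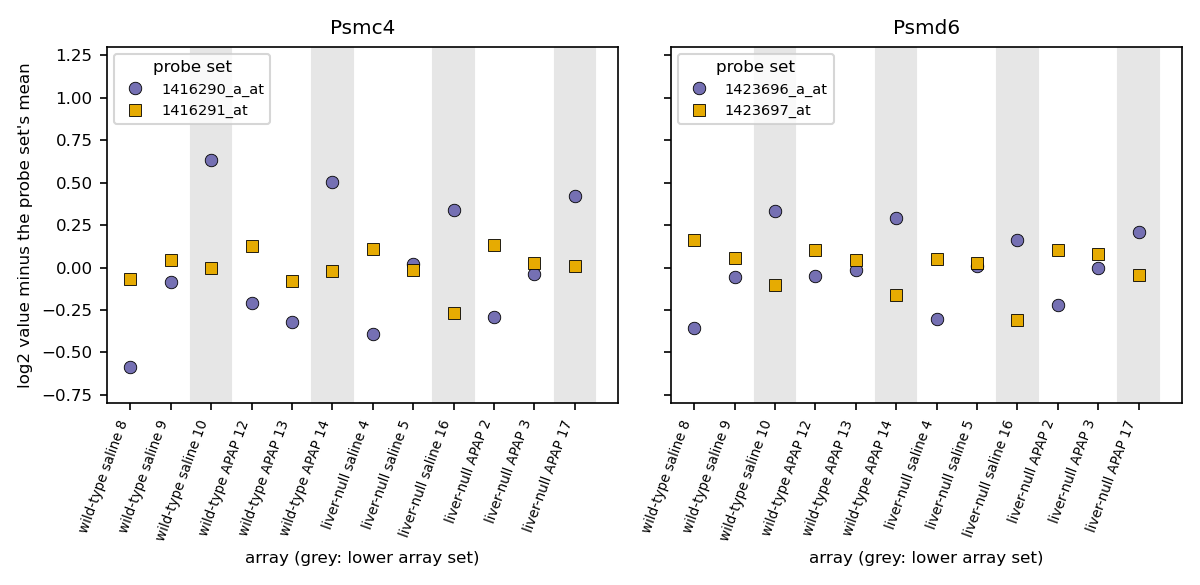
Log2 value minus the probe set's own mean for both probe sets of Psmc4 (left) and Psmd6 (right) on the 12 arrays, with the lower array set shaded. The probe sets ending in _a_at are high on the shaded arrays, by 0.71 and 0.37, and the others are not.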

How the data were processed

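Liver RNA was amplified in a single cycle to biotin-labelled cRNA and read on 12 Affymetrix arrays, per the labels. Each array was taken to be 1 mouse, from the number that ends its title. The values deposited by the authors are log2 expression from RMA, per the submitters' processing notes; no version is given in the sources used here, nor whether the arrays were normalized as 1 set. Of 22690 probe sets, 20380 had 1 symbol and 691 several in GEO's platform annotation, which can be old. There are no detection calls, and precision is limited by the number of arrays. Pairwise correlations between arrays were 0.986 to 0.998, and no pair was identical.

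No further normalization was applied. A gene was represented by its single-symbol probe set with the highest mean. Genes above the 40th percentile on at least 3 arrays entered a fit with limma 3.58.1 (R 4.3.3) of 1 mean per group over 12 arrays, with 8 residual and 3.43 prior degrees of freedom and Benjamini-Hochberg adjustment over 8469 genes, two-sided, called under 0.05. The fit was tested on simulated data. Values of every array are given for the 2 members of each role with the largest genotype difference over both treatments and the 1 with the smallest, for the 3 immunoproteasome subunits and Txnrd1. From each list, differences are given for called genes (up to 4 a direction) or else the 2 largest. Psma8, Psmb6, Psmc4 and other values beyond this were chosen after they were seen. Members, lists and tests were chosen with earlier results of these data known. The replicates carry separate numbers, taken as separate mice, so p-values measure the spread between these samples. Promoter sequences are RefSeq's for GRCm38.p6. Alternatives covered the filter, probe set rule, normalization, array set, arrays in the fit, array weights, the variance prior and single arrays.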

Additional observations from a re-analysis of the deposited data

How the results depend on the processing

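Of 130 alternative counts of called proteasome genes (6 comparisons), 121 equalled the count reported, which was 0. For genotype over both treatments the count was 1 (Psmb5) with the mean of probe sets, median centring, quantile normalization, the array set as a covariate, an intensity trend with robust prior, and, chosen after seeing the data, without the 4 arrays of the lower set; it was 3 with array weights (Psmb5, Psmd5, Psme1) and 0 to 2 when single arrays were left out, 2 being without liver-null saline 16. For genotype in saline it was 4 with array weights (Psmb5, Psme1, Psmg2 and, lower, Psmg3) and 0 to 0 without single arrays. Array weights called 1323 genes of all in saline and 1409 over both, against 54 and 378; the array set gave 243 and 882. The cause was not tested. All 130 alternative medians of the members stayed within the spread between replicates (0.10), with 20 changes of sign around 0. That spread is wider than any of the reported medians (-0.010 to 0.045), so this comparison could hardly fail and says little. Of 2334 alternative differences of the 18 members given by array, 15 changed call, all to called, and 0 reversed. Adding all genes without a filter tested 44 members and called 0. Psmg4 has no value under the stricter filter, and fits of only 6 arrays could not be made for genotype over both treatments or the interaction. No paired analysis was possible because no replicate number is shared between groups. Psmb5 and Psme1 rest mostly on the 8 upper arrays, and signal near background limits Psmg4.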
